A study of Mus musculus with 6 samples.

Results

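The genes described are 40 nucleolar ribosome biogenesis genes, listed by symbol and role, with earlier results of these data known but with no value of the table in the rule. A gene counted as measured where at least 1 transcript cluster of the array carried its symbol and no other, and clusters of the same gene were averaged. By this rule 39 of the 40 were measured, out of 16583 genes in all. The exception was Noc2l, which no cluster named. Of the 39, 36 rested on 1 cluster, and Fbl, Wdr12 and Ddx18 on several.

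The nucleolus is where RNA polymerase I transcribes the ribosomal RNA precursor and where that RNA is modified, cut and folded with ribosomal proteins into the small and large ribosomal subunits. MYC, which binds the E-box sequence CACGTG together with MAX, is well known for raising many genes of this machinery in growing and tumour cells, neuroblastoma among them. The USF factors belong to the same broad class of DNA-binding proteins and recognise the same E-box. The comparison therefore addresses whether E-box genes of the nucleolus are shared with, or opposed by, the USF factors.

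RNA came from the mouse neuroblastoma line neuro2a and was read on Affymetrix Mouse Gene 1.0 ST arrays, 3 per group. The control group (Control 1 to 3) carried an empty vector. The knockdown group (USFKD 1 to 3) carried microRNA-type RNA interference vectors against USF1 and USF2, built in pcDNA6.2-GW/EmGFP-miR and introduced with Lipofectamine 2000. No source used here gives the time after transfection or the share of cells that took up the vector, so RNA of cells without vector may be part of each sample. Replicates are labelled biological, but separate cultures are not named, so a p-value measures only how far these samples differ from each other, possibly for technical reasons.

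Values are log2 signals relative to the gene's own median over the 6 arrays, so they compare arrays within a gene and hold no level of it. Genes are called brighter where the rounding of the deposited numbers placed their signal between 8 and 16 on the log2 scale before centring, and dimmer between 4 and 8. All 39 nucleolar genes were in the brighter class, against 7488 of all 16583 genes. Of the neuroblastoma and sympathetic markers 14 of 18 measured were brighter, against 1 of 12 for glia, 1 of 10 for fibroblasts, 0 of 8 for macrophages and blood cells, and 2 of 13 for endothelium and epithelium. The median changes of the last 4 lists were 0.063, 0.022, 0.040 and 0.054 (0.012 over the dimmer genes), and their medians on USFKD 2 against the control mean were 0.16, 0.21, 0.063 and 0.11 (0.087 over the dimmer genes). Their part in the results was not tested. Both targets had lower values after knockdown: Usf1 at 0.18, 0.32 and 0.43 on the control arrays and -0.28, -0.18 and -0.26 on the knockdown arrays, a change of -0.55 ± 0.07 (SE) or 0.682-fold. Usf2 changed by -0.38 ± 0.06 (SE) or 0.770-fold. The groups did not overlap for either target (exact two-sided permutation p = 0.1, the smallest that 3 against 3 arrays can give), but neither passed over all genes (limma adjusted p = 0.320 and 0.348).

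The E-boxes themselves are shown first, because both factor families recognise this sequence. RefSeq promoter windows of build GRCm38.p6, which run from 250 bases before to 50 bases after each gene's start, were found by symbol for 34 of the 40 genes. Bop1, Fbl, Npm1, Rrp12, Rrs1 and Tcof1 had no entry. CACGTG, which reads the same on both strands, was in the windows of 5 of the 34 (14.7%), against 8.09% of all 27025 genes with a window and 12.7% of the brighter genes with a window. The stretches around it, 5′ to 3′ on the gene's strand with the E-box in capitals, were these:
Pes1: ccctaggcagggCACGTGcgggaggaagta
Wdr43: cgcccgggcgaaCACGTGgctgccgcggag
Mybbp1a: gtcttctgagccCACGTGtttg
Nop2: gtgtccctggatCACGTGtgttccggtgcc
Utp20: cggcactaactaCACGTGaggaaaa
They lie at chr11:3963965-3963994 (Pes1, plus strand), chr17:71616220-71616249 (Wdr43, plus), chr11:72441355-72441376 (Mybbp1a, plus), chr6:125131811-125131840 (Nop2, plus) and chr10:88826765-88826789 (Utp20, minus). Counted from the annotated start, the E-box of Nop2 begins at base -60. Those of Pes1, Wdr43, Utp20 and Mybbp1a begin 2, 17, 37 and 40 bases after the start, in the first transcribed stretch. The form TCACGTG (either strand), whose leading T is known from USF sites, was found in Nop2 and Utp20, and CCACGTG (either strand), whose leading C is known from MYC and MAX sites, in Mybbp1a and Wdr43. These forms were in 7.85% and 6.75% of the brighter genes with a window. Both contain CACGTG, so they are no separate sites. A match to these letters is a description and not a measured binding site. Sequence outside the windows was not searched, so a gene without CACGTG in its window may hold E-boxes elsewhere.

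No change of the nucleolar genes was detectable after knockdown of USF1 and USF2. No nucleolar gene passed in limma adjusted over all genes (0 of 39, adjusted p from 0.996 to 1.00), beside 1 of 16583 genes in all (0.00603%) and 1 of the brighter genes (0.0134%). At an unadjusted p under 0.05 limma counted 1 of 39, Nop56, against 4.25% of all genes and 4.99% of the brighter genes. It was 1 higher and 0 lower, against 1.51% and 3.49% of the brighter genes. Fitted changes ran from -0.093 (Nop58) to 0.095 (Nop56), that is from 0.937-fold to 1.07-fold, and all 39 were smaller than 0.1 in size, as were 89.1% of the brighter genes. The 95% intervals of all 39 lay within -0.24 and 0.23, so a change below 0.847-fold or above 1.18-fold lay outside every interval. These intervals are those of single genes and are not adjusted for their number. In a bulk sample fewer cells with a transcript and less of it per cell cannot be told apart.

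**Figure D1:**
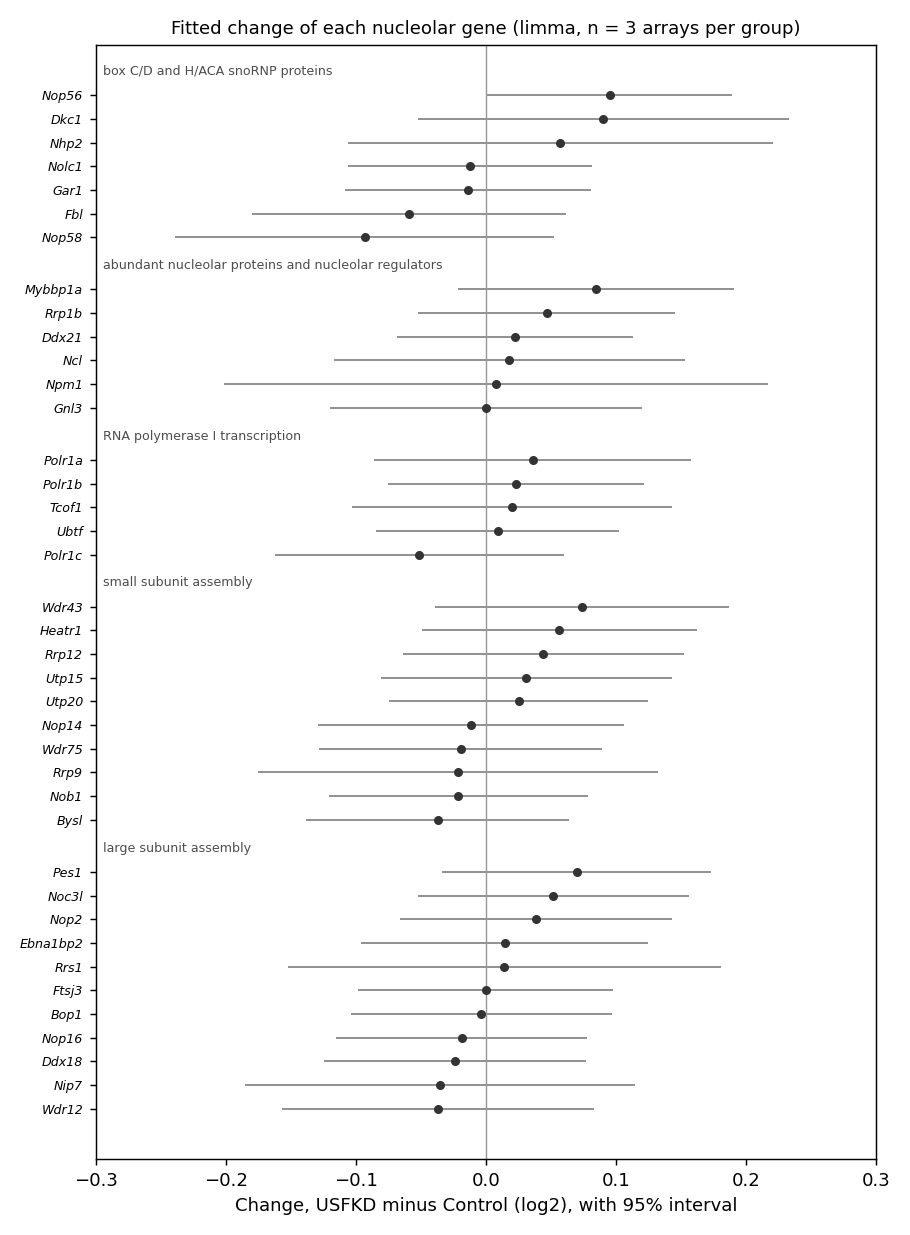
Fitted change of each of the 39 measured nucleolar genes, USFKD minus Control on the log2 scale, as points with 95% intervals from limma (n = 3 arrays per group), ordered by role. Points lie between -0.093 and 0.095, and the interval of Nop56 alone excludes 0.

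As a set the genes sat slightly above the rest of the array. The median change of the 39 was 0.014, against -0.00066 over all genes and -0.011 over the brighter genes. Of the 39, 22 (56.4%) had a change above 0, against 40.9% of the brighter genes and 49.6% of all genes. On USFKD 1, 2 and 3 the median of the nucleolar genes against the control mean was 0.018, -0.0039 and 0.036, against -4.1e-04, -0.036 and 0.0044 for the brighter genes. USFKD 2 stood apart, with a standard deviation over all clusters of 0.159 where the other arrays had 0.0531 to 0.0780. Its dimmer genes were high (median 0.080) and its brighter genes low (median -0.025). The nucleolar genes were lowest of the 6 arrays on USFKD 2 in 11 of 39 cases (28.2%), against 41.1% of the brighter genes. The median change was 0.026 without USFKD 2, -5.7e-04 without USFKD 3, 0.0020 without USFKD 1 and 0.0067 without Control 2. The brighter genes moved with it, at 0.0022, -0.019, -0.015 and -0.013 in the same fits, and stayed below the nucleolar genes in each. No value over the set was tested.

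**Figure D2:**
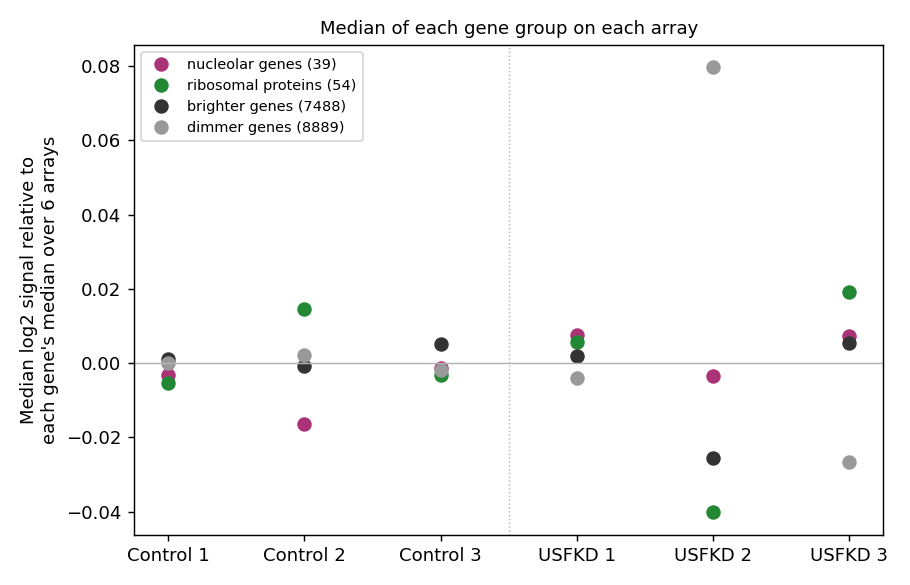
Median log2 signal, relative to each gene's own median over the 6 arrays, of nucleolar genes, cytosolic ribosomal protein genes, brighter genes and dimmer genes on each array. On USFKD 2 the dimmer genes sit at 0.080 and the brighter genes at -0.025, with the nucleolar genes between them at -0.0034.

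The proteins that bind small nucleolar RNAs held both ends of the range. Box C/D particles guide methylation of ribosomal RNA and box H/ACA particles guide its conversion to pseudouridine. Nop56 (cluster 10476093), a core protein of box C/D particles, was at -0.058, -0.087 and -0.025 on the control arrays and 0.040, 0.025 and 0.050 on the knockdown arrays. All 3 knockdown arrays lay above all 3 control arrays. The change was 0.095 ± 0.041 (SE) or 1.07-fold, with an unadjusted limma p of 0.0478 and an adjusted p of 0.996. The unadjusted p stayed under 0.05 in 1 of the 6 fits without 1 array, that without USFKD 2, at changes of 0.080 to 0.11. Its window held no CACGTG.

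Nop58 (cluster 10346634), the partner of Nop56 in the same particle, had the lowest change, -0.093 ± 0.063 (SE). It was at -0.0021, 0.0040 and 0.0021 on the control arrays and 0.0076, -0.23 and -0.057 on the knockdown arrays. The groups overlapped, and USFKD 2 set most of the difference: without it the change was -0.026. Fbl, the methyltransferase of the particle, was at -0.052, 0.084 and 0.088 on the control arrays and -0.044, 0.018 and -0.030 on the knockdown arrays, a change of -0.059 ± 0.052 (SE). Its clusters 10447589 and 10551464 differed by -0.032 and -0.086. Control 1 lay below every knockdown array for Fbl, so the groups overlapped.

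Dkc1 (cluster 10600485), the pseudouridine synthase of the H/ACA particles, was at -0.18, 0.0079 and -0.0079 on the control arrays and 0.078, -0.019 and 0.028 on the knockdown arrays. The change of 0.090 ± 0.062 (SE) was carried by the low Control 1, and without that array it was 0.029. The other H/ACA proteins Nhp2 and Gar1 had changes of 0.057 and -0.014, and Nolc1, a chaperone of both kinds of particle, had -0.012. Of the 7 proteins of this role 3 had a change above 0, and the median was -0.012.

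Abundant nucleolar proteins and regulators had 5 of 6 changes above 0, with a median of 0.020 that was 0.064 without USFKD 2 and 0.0015 without USFKD 3. Npm1 (cluster 10385043), a histone and ribosome chaperone, was at 0.090, -0.035 and -0.057 on the control arrays and 0.035, -0.19 and 0.17 on the knockdown arrays. The knockdown arrays of Npm1 were the lowest and the highest of all 6, and its change was 0.0077 ± 0.090 (SE), the least precise of the set. It was 0.10 without USFKD 2 and -0.075 without USFKD 3. A further 3 clusters, left out because they also name Gm15484, had differences of 0.0055, 0.016 and 0.013 for Npm1. Ncl (cluster 10356312), which binds the ribosomal RNA precursor, was at 0.051, -0.036 and -0.056 on the control arrays and 0.036, -0.097 and 0.074 on the knockdown arrays. Its change of 0.018 ± 0.058 (SE) was far inside the spread of both groups, at 0.069 without USFKD 2 and -0.017 without USFKD 3.

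Mybbp1a (cluster 10378088), a nucleolar protein that represses MYB and ribosomal RNA transcription, had the second smallest p of the set. It was at -0.048, -0.075 and 0.0060 on the control arrays and -0.0060, 0.065 and 0.077 on the knockdown arrays. USFKD 1 lay below Control 3, and the change was 0.085 ± 0.046 (SE, limma adjusted p = 0.996). Rrp1b, a partner of a nucleolar phosphatase, was at -0.0031, -0.022 and -0.030 on the control arrays and 0.0031, 0.0031 and 0.078 on the knockdown arrays. Its groups did not overlap, but USFKD 1 and 2 lay close to Control 1, and the change was 0.047 ± 0.043 (SE). The RNA helicase Ddx21 had 0.022, and Gnl3 (nucleostemin), a GTPase of proliferating cells, -4.4e-05.

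**Figure D3:**
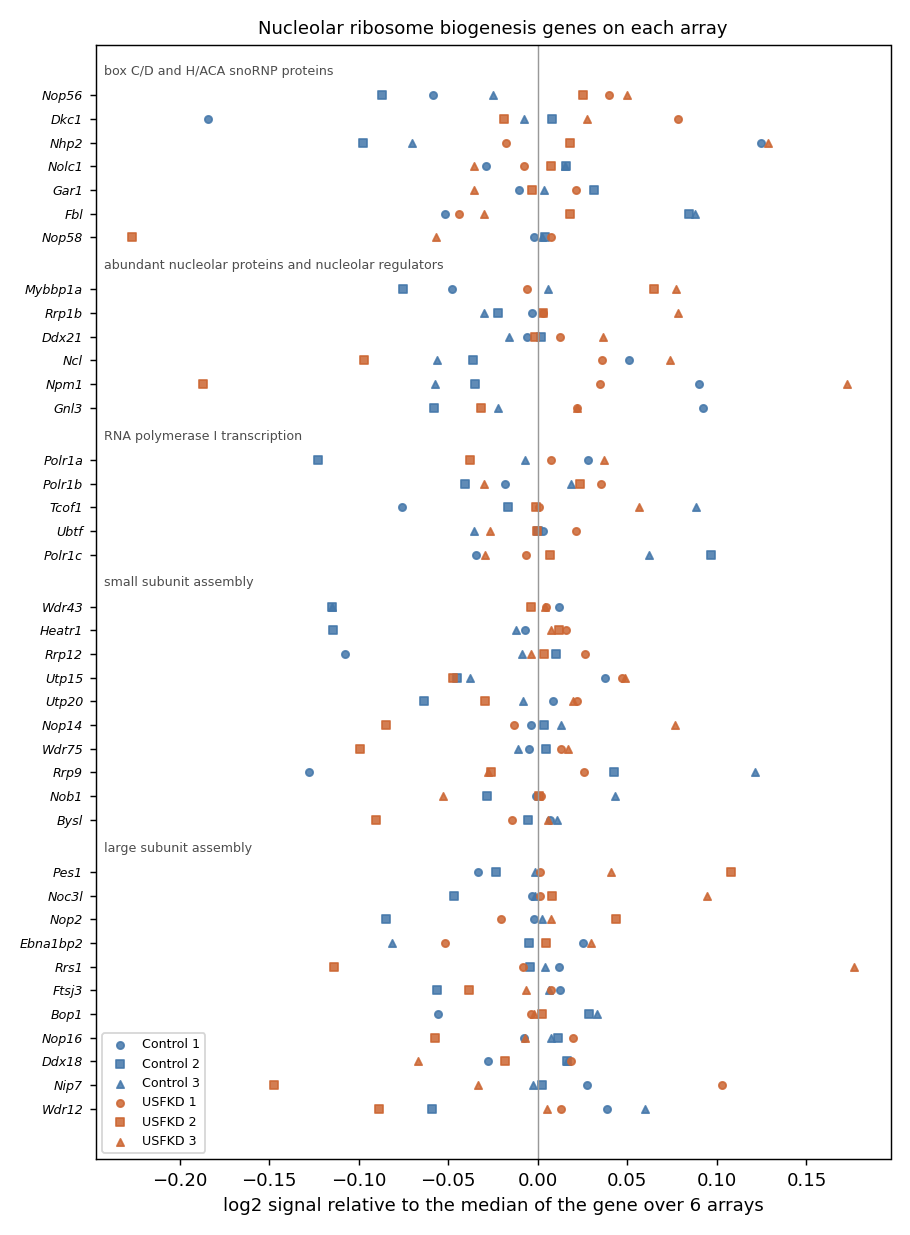
Log2 signal of each of the 39 nucleolar genes on each array, relative to the gene's median over the 6 arrays, by role; blue symbols are Control 1 to 3 and orange symbols USFKD 1 to 3. The colours interleave for 34 genes and separate for 5, with the knockdown arrays above in Nop56, Pes1, Heatr1, Noc3l and Rrp1b.

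The genes of RNA polymerase I transcription had small changes, 4 of 5 above 0, with a median of 0.020. Polr1b (cluster 10475965), the second largest subunit of the enzyme, was at -0.018, -0.040 and 0.018 on the control arrays and 0.035, 0.024 and -0.030 on the knockdown arrays. Ubtf (cluster 10391625), the factor that binds ribosomal DNA, was at 0.0029, 2.1e-04 and -0.036 on the control arrays and 0.021, -2.1e-04 and -0.027 on the knockdown arrays. The groups of both genes overlapped, at changes of 0.023 ± 0.043 and 0.0090 ± 0.040 (SE). The largest subunit Polr1a had 0.036, the scaffold protein Tcof1 0.020, and Polr1c, shared with RNA polymerase III, -0.051.

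Genes of small subunit assembly were evenly divided, 5 of 10 above 0, with a median of 0.0069. Wdr43 (cluster 10446693), a protein of the small subunit processome, was at 0.012, -0.115 and -0.115 on the control arrays and 0.0049, -0.0040 and 0.0040 on the knockdown arrays. The knockdown arrays lay close together, and Control 1 lay above all of them. The change was 0.074 ± 0.049 (SE, limma adjusted p = 0.996), and 0.12 without Control 1. Heatr1, a large processome protein that also serves RNA polymerase I, was at -0.0073, -0.11 and -0.012 on the control arrays and 0.016, 0.012 and 0.0073 on the knockdown arrays. Its groups did not overlap, and Control 2 made most of the change of 0.056 ± 0.046 (SE), which was 0.021 without it. Rrp12, Utp15 and Utp20 had changes of 0.044, 0.031 and 0.025. Nop14, Wdr75, Rrp9, Nob1 (the nuclease that makes the last cut of the small subunit RNA) and Bysl had -0.011, -0.019, -0.021, -0.021 and -0.037.

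Genes of large subunit assembly had 5 of 11 changes above 0 and a median of -1.8e-04. Pes1, Bop1 and Wdr12 form the PeBoW complex, which is needed to process the large subunit RNA. Pes1 (cluster 10373814) was at -0.033, -0.023 and -0.0014 on the control arrays and 0.0014, 0.11 and 0.041 on the knockdown arrays. The groups of Pes1 did not overlap, though Control 3 and USFKD 1 were nearly equal, and the change was 0.070 ± 0.045 (SE). It was 0.041 without USFKD 2. Bop1 (cluster 10429908) was at -0.056, 0.029 and 0.033 on the control arrays and -0.0040, 0.0021 and -0.0021 on the knockdown arrays, a change of -0.0034 ± 0.043 (SE). Wdr12 had -0.037, and its clusters 10355037 and 10550098 pointed opposite ways, at -0.089 and 0.015. Noc3l was at -0.0033, -0.047 and -0.0015 on the control arrays and 0.0015, 0.0078 and 0.095 on the knockdown arrays, again without overlap, at a change of 0.052 ± 0.045 (SE) that was 0.022 without USFKD 3. The others were the RNA methyltransferase Nop2 (0.038), Ebna1bp2 (0.015), Rrs1 (0.014), Ftsj3 (-1.8e-04), Nop16 (-0.019), the helicase Ddx18 (-0.024) and Nip7 (-0.035). Rrs1 and Nip7 varied most among the knockdown arrays, from -0.11 to 0.18 and from -0.15 to 0.10.

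In 5 of 39 genes all knockdown arrays lay above all control arrays, beside 4.33% of all genes and 5.44% of the brighter genes. In 0 of 39 they lay below, beside 5.95% and 8.48%. The 5 were Nop56, Pes1, Heatr1, Noc3l and Rrp1b, and their smallest limma adjusted p was 0.996.

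The 5 genes with CACGTG in their window all had changes above 0: Mybbp1a 0.085, Wdr43 0.074, Pes1 0.070, Nop2 0.038 and Utp20 0.025. Of the 28 measured genes with a window but without CACGTG, 13 had a change above 0. The medians of these groups were 0.070 and -1.1e-04. Among the brighter genes, 44.9% of the 772 with CACGTG and 40.3% of those without had a change above 0, with medians of -0.0083 and -0.012. None of the 5 reached an unadjusted limma p of 0.05 in the unweighted fit of all 6 arrays. The groups overlapped in 4 of them. Wdr43 fell under 0.05 in the fit without Control 1 and in that with array weights. On USFKD 1, 2 and 3 the median of the 5 against the control mean was 0.033, 0.072 and 0.061, and 5, 4 and 5 of them lay above that mean. For the 28 without CACGTG the medians were 0.018, -0.016 and 0.012, and 20, 11 and 16 of them lay above it. The same control mean enters all of these values and each change, so the arrays are no separate evidence. Without 1 array at a time the median of the 5 stayed between 0.042 and 0.073, and with array weights it was 0.029. Single genes were less steady. Without Control 2 the changes were 0.068 (Pes1), 0.067 (Mybbp1a), 0.053 (Wdr43), 0.010 (Nop2) and 0.0040 (Utp20). The difference between these groups was not tested. The non-canonical E-box CACGCG (either strand) was in 12 of 34 windows (35.3%), against 21.8% of the brighter genes with a window, and the 11 measured genes with it had a median of 0.0090 against 0.016 for the 22 without.

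**Figure D4:**
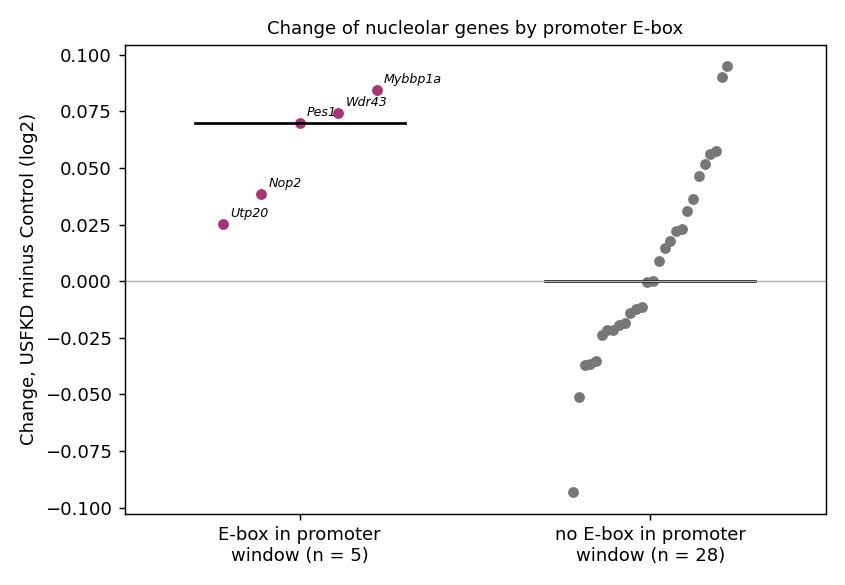
Change of each nucleolar gene with a promoter window, USFKD minus Control on the log2 scale, for 5 genes with CACGTG in the window (left, named) and 28 without (right), each sorted by its change; bars are medians. All points on the left lie above 0, between 0.025 and 0.085, within the range of the points on the right.

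Other genes of the same machinery, listed by role, gave no call either, beside 1 of 16583 genes in all (0.00603%). At that share, lists of this size would rarely hold a call. Of 11 other RNA polymerase I genes, 0 passed in limma over all genes, with a median of -0.023. At an unadjusted p under 0.05 limma counted 0 of them, beside 4.25% of all genes. Polr1d, a subunit shared with RNA polymerase III, had -0.10 ± 0.05 (SE), and the termination factor Ttf1 and the initiation factor subunit Taf1c had 0.071 and 0.065. The median of these 11 was 0.022 without USFKD 2, on which it lay at -0.081. Of 43 other small subunit processome genes, 0 passed over all genes. At an unadjusted p under 0.05 limma counted 2 with higher and 1 with lower values, beside 1.6% and 2.65% of all genes. They were Nol6 (0.13 ± 0.04, SE), the RNA acetyltransferase Nat10 (0.12 ± 0.05) and Imp3 (-0.11 ± 0.05). Of 55 other large subunit assembly genes 0 passed at either threshold, with a median of -0.013, and the smallest p were those of Nle1 (0.099), Tex10 (0.084) and Gnl2 (-0.075).

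Cytosolic ribosomal protein genes, the products that the nucleolus assembles, were 54 measured of 79 listed, with 0 passing at either threshold and a median of -0.0097. Over all genes the shares passing were 0.00603% adjusted and 4.25% unadjusted. Many ribosomal protein genes have near-identical pseudogene copies, so their probes may read more than 1 copy. The smallest p among the ribosomal protein genes were those of Rpl29 (-0.13), Rps29 (-0.11) and Rpl37a (0.067). On USFKD 2 their median was -0.040 and on USFKD 3 0.019. Other growth genes known as MYC targets, 37 measured of 42, had a median of 0.0045 and 0 passing at either threshold. Among them Cad, which begins pyrimidine synthesis, had 0.098 ± 0.045 (SE), the purine enzyme Paics -0.065 and the amino acid transporter Slc7a5 0.069. Of the factors themselves, Myc had a change of 0.027 ± 0.041, Mycn -0.056 ± 0.050 and their partner Max 0.076 ± 0.043 (SE). The MAX partners Mxd1 and Mxd3 had 0.11 and -0.11, and 0 of the 13 genes of the MYC network passed at either threshold.

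**Figure D5:**
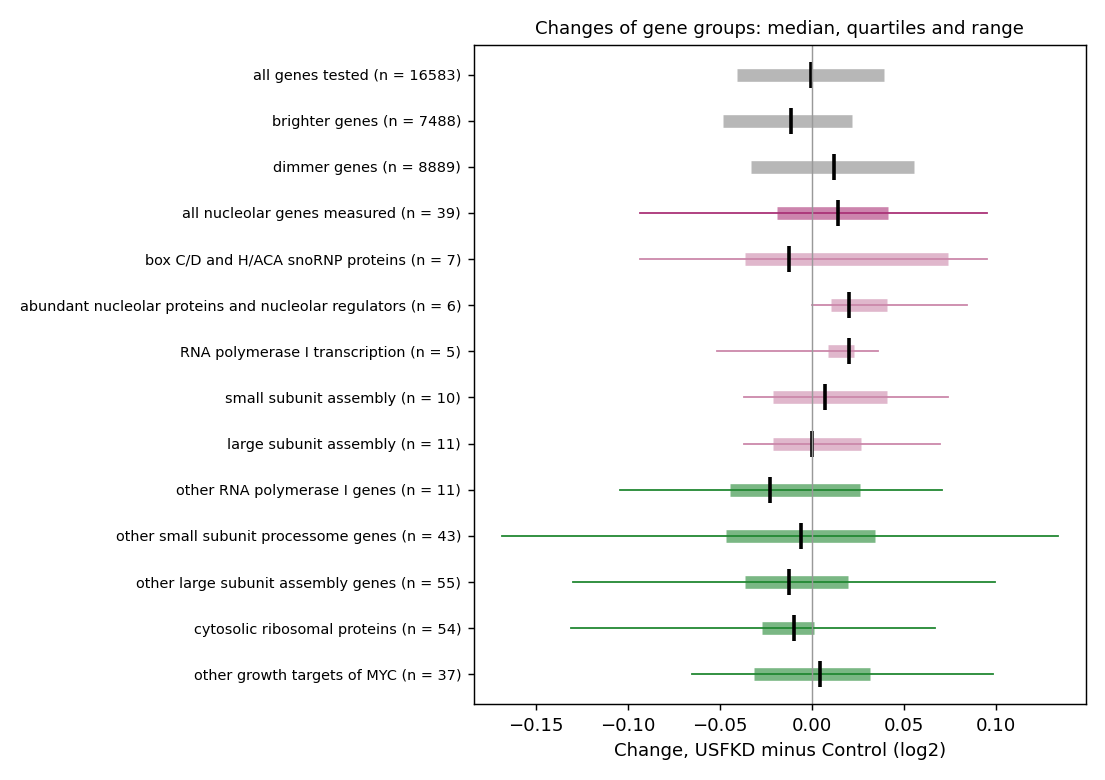
Change, USFKD minus Control on the log2 scale, in the 39 nucleolar genes, their roles, 3 lists of other genes of the same machinery, ribosomal proteins and other MYC growth targets (the MYC network and marker lists are not drawn): black ticks are medians, thick bars the middle 50% of genes and thin lines the full range (not drawn for the 3 grey groups of all, brighter and dimmer genes). Every median drawn lies between -0.023 and 0.020.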

How the data were processed

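The deposited values are, by the rounding of their numbers, on a log2 scale: the authors deposited a single table of 22891 transcript clusters on 6 arrays, centred on each cluster's median (largest absolute median left 5e-07). How background was corrected and arrays were normalized is not stated in any source used here, nor is a genome build. Symbols came from the platform annotation, with 18087 clusters holding 1 symbol, 1145 several and 3659 unnamed. Brightness classes were read from rounding steps (tolerance 0.05 of a step). A class is no measured level, and 41 clusters had none. The 16583 genes were fitted with limma 3.58.1 (lmFit, eBayes; R 4.3.3; 4 residual and 3.79 prior degrees of freedom), with p-values adjusted over all of them by Benjamini-Hochberg and a threshold of 0.05. The few arrays limit the precision: the SE of a nucleolar gene's change was 0.0467 at the median. The fit was tested on simulated data. Figures used Python 3.11.15 and matplotlib 3.10.9. All genes and lists were chosen with earlier results of these data known. Values on every array are given for the 10 nucleolar genes with the smallest p and 8 well known ones, 15 in all, and each list of the ribosome machinery and of MYC names its 3 smallest p. Marker lists of other cell types are given by counts and medians. Alternatives covered arrays left out, the replicate block, normalization, centring, variance, weights, dim genes and single clusters.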

Additional observations from a re-analysis of the deposited data

How the results depend on the processing

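No nucleolar gene passed over all genes in any of the alternatives. The smallest adjusted p in limma was 0.0602, with array weights, and 0.560 or more in the others. Without 1 array at a time, the values ranged as follows: 0 to 1 genes called in all, 369 to 1248 genes and 0 to 1 nucleolar genes at an unadjusted p under 0.05, and a median of the nucleolar genes of -5.7e-04 to 0.026. The median ranged from 0.0015 to 0.064 for abundant proteins and regulators, from -0.0035 to 0.035 for small subunit assembly and from -0.0032 to 0.013 for large subunit assembly. It ranged from -0.046 to 0.022 for other RNA polymerase I genes, from -0.023 to 0.034 for other processome genes and from -3.8e-04 to 0.015 for other MYC growth targets. Of the 39 nucleolar genes 16 took both signs in these fits. Among those with values on every array these were Npm1 (-0.075 to 0.10), Ncl (-0.017 to 0.069), Ubtf (-0.0034 to 0.021) and Bop1 (-0.032 to 0.012). With the replicate block 0 genes were called in all and 0 nucleolar genes at an unadjusted p under 0.05. Deviations of same-numbered arrays correlated at 0.00311, 0.0819 and 0.0364 over 16583 genes, so the numbers were not taken as pairs, and the block left each change as it was. With quantile normalization the medians were 0.028 (nucleolar), 0.026 (small subunit), 0.012 (large subunit) and 0.013 (MYC growth targets). Centring within brightness class gave a nucleolar median of 0.022 and turned Bop1 to 0.0039. With array weights, which put 33 on USFKD 1 and 0.136 on USFKD 2, 1111 genes passed in all. At an unadjusted p under 0.05 there were 4356 of the 16583 genes. Of the 39 nucleolar genes there were 6, a smaller share (Dkc1, Fbl, Nip7, Nop56, Utp15 and Wdr43). That fit had Usf1 at -0.62, Usf2 at -0.46 and Nop58 turned to 0.0039. Its medians were 0.010 (small nucleolar RNA proteins), 0.031 (small subunit), 0.010 (large subunit), 0.019 (other RNA polymerase I), 0.030 (other processome) and 0.029 (genes with CACGTG). Its knockdown mean is in effect that of 1 array. The cause of these shifts was not tested. A variance trend could not be fitted, since no mean level is kept.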

Other observations

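The control arrays also differed among themselves in the nucleolar genes. The arrays and genes named for it were picked after their values were seen, and the differences were not tested. Control 2 was the lowest of all arrays in 11 of 39 (28.2%), against 15.7% of the brighter genes. The nucleolar median on Control 2 was -0.016, against -8.1e-04 for the brighter genes. On Control 1 and 3 it was -0.0033 and -0.0014, against 0.0011 and 0.0052. The shares for Control 1 were close to those of the brighter genes. Control 1 lay above both other controls in 15 of 39 (38.5%, against 37.2% of the brighter genes), among them Npm1, Ncl, Gnl3 and Nhp2 (0.090, 0.051, 0.092 and 0.12). It lay below both in 14 of 39 (35.9%, against 40% of the brighter genes), among them Dkc1, Rrp9, Rrp12 and Fbl (-0.18, -0.13, -0.11 and -0.052). For Nhp2 and Npm1, USFKD 3 was the highest array, at 0.13 and 0.17, and Control 1 the next highest. The neuroblastoma and sympathetic marker list had a median change of -0.032, with 0 of 18 called by limma over all genes and 3 with lower values whose unadjusted p was under 0.05, beside 2.65% of all genes and 3.49% of the brighter genes. Of the 18, 8 had a change above 0, beside 49.6% of all genes. The knockdown arrays lay wholly below the controls in 4, beside 5.95% of all genes and 8.48% of the brighter genes. They lay wholly above in 2, beside 4.33% and 5.44%. The 3 were Dbh, the enzyme that makes noradrenaline (-0.25 ± 0.05, SE), Chgb, a protein of secretory granules (-0.15 ± 0.05) and the neuronal RNA-binding protein Elavl4 (-0.13 ± 0.04). In these 3 every knockdown array lay below every control array. Among the fibroblast markers Acta2, smooth muscle actin and 1 of 10 measured, had -0.22 ± 0.06 (SE) with the groups apart in the same direction (limma adjusted p = 0.996), while 8 of the 10 had a change above 0.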
